A study of Sus scrofa with 16 samples.

Results

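The 34 genes described here serve protein folding in the endoplasmic reticulum (ER) and the stress responses tied to it. They were taken by symbol from the deposited count table as a named list of ER chaperones, disulfide isomerases, stress sensors and amino acid stress genes. All 34 were found among 29552 entries with a gene name, and all 34 passed the filter on low counts that left 14530 tested genes. They were measured in 16 polyA RNA libraries of valve interstitial cells, which build and maintain the leaflet matrix, from aortic valves of pigs aged 5 to 6 months. The groups were male cells on gel, male cells on plastic, female cells on gel and female cells on plastic, with n = 4 each, from 4 male and 4 female biological replicates. Gel was a PEG-norbornene hydrogel with an elastic modulus of about 5.8 kPa, and plastic was tissue culture plastic. Every group had spent 48 hours in Media 199 with 1% fetal bovine serum, penicillin, streptomycin and amphotericin B. The labels call the cells on gel quiescent fibroblasts and those on plastic myofibroblasts, and name no transgene, agent or other treatment.

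Proteins that a cell secretes or places in its membranes fold inside the ER. Chaperones of the HSP70 and HSP90 families hold unfolded chains there, lectins retain glycoproteins until they fold, and disulfide isomerases form and rearrange disulfide bonds. When unfolded protein builds up, the sensors IRE1 (gene ERN1), PERK (gene EIF2AK3) and ATF6 start the unfolded protein response. IRE1 splices XBP1 mRNA, PERK raises the translation of ATF4, and ATF6 is cut to release a transcription factor. Lack of amino acids also acts through ATF4, which induces enzymes of amino acid synthesis. Fibroblasts rely on this system because collagen needs its own chaperones and hydroxylases in the ER. A gene count reports neither XBP1 splicing, ATF4 translation, ATF6 cleavage nor the phosphorylation of PERK and IRE1.

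Library totals ran from 16.9 to 27.4 M counts. Levels below are counts per M counts (CPM) scaled by TMM. This method gives each library a scaling factor, on the assumption that most genes do not change between libraries. Changes are log2 differences with their standard error (SE), and a gene was called at an adjusted p under 0.05 over all 14530 genes. The fibroblast markers VIM, COL1A1, COL1A2, COL3A1, DCN, LUM, PDGFRA, PDGFRB and THY1 summed to 38890 to 47060 CPM on gel and 43610 to 54770 CPM on plastic. Of these 9 markers, 3 rose and 3 fell on plastic in male cells, and 1 rose and 3 fell in female cells. PDGFRA changed by -2.44 and -2.39, LUM by -1.62 and -1.42 and DCN by -1.33 and -1.41 in male and female cells, all called lower. The 5 epithelial markers summed to at most 0.452 CPM, and the leukocyte markers CD3E, MS4A1 and CD163 were at 0 in every library. The 10 leukocyte markers summed to 5.76 to 14.5 CPM on gel and 8.14 to 38.5 CPM on plastic. The 12 endothelial markers summed to 156 to 287 CPM on gel and 198 to 580 CPM on plastic, and 1 of them rose on plastic in male and 2 in female cells. Of the 10 smooth muscle and pericyte markers, 9 were tested, 7 rose and 2 fell on plastic in each sex, and the list summed to 2675 to 6352 CPM on gel and 13380 to 25780 CPM on plastic. ACTA2 (smooth muscle alpha-actin) rose by 2.32 in male and 2.18 in female cells. The part of these markers in the changes below was not tested. In bulk RNA, a change in the share of a cell type and a change in RNA per cell cannot be told apart. The library male gel 2 had the smallest total and stood apart, as it held the highest male gel level for 36.5% of the tested genes and the lowest for 39.6%. Female plastic 4 held the highest level of its group for 31.1% and the lowest for 32.5%.

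Plastic against gel was the comparison of the study's myofibroblast and fibroblast states. Most of the ER genes did not pass the test in either sex. In male cells 1 of 34 genes rose and 6 fell, where 12.9% of all tested genes rose and 12.9% fell. ATF3 rose, and HSP90B1, CANX, PDIA4, DNAJB9, DNAJC3 and HERPUD1 fell. In female cells 1 rose and 2 fell, where 12.7% of all tested genes rose and 11.3% fell. ATF3 rose again, and PDIA4 and DNAJB9 fell. PDIA4 and DNAJB9 were thus called lower in both sexes, 2 of 34 genes beside 7.27% of all tested genes, and ATF3 was called higher in both, 1 of 34 beside 9.24%. Called genes of either direction made up 25.8% of all tested genes in male and 23.9% in female cells. Plastic and gel CPM did not overlap for 5 of the 34 genes in male cells, beside 28.9% of all tested genes, and for 6 in female cells, beside 27.7%. The median change of the 34 genes was -0.09 in male and -0.08 in female cells, and that of all tested genes was -0.03 and -0.04. Only the share that fell in male cells lay above that of all tested genes, and the other shares of the 34 genes lay below it.

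**Figure D1:**
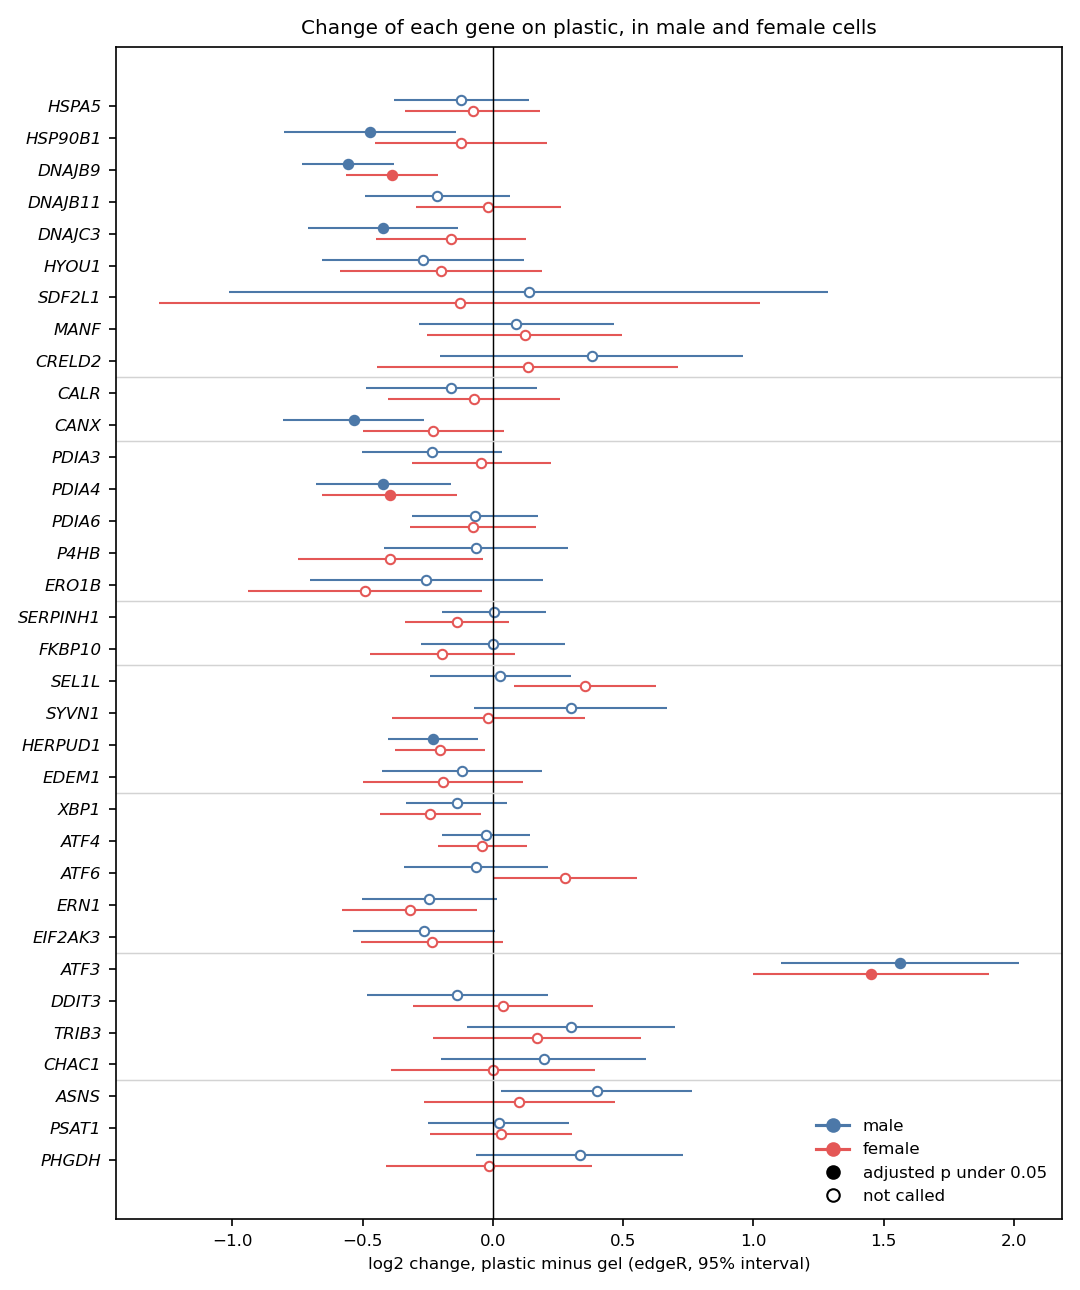
Log2 change of each of the 34 genes from gel to plastic (x axis) with its 95% interval, in male (blue) and female (red) cells, from the edgeR fit; filled points passed an adjusted p of 0.05 and grey lines part the roles. ATF3 stands alone at 1.56 and 1.45, while every other gene lies between -0.56 and 0.40.

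ATF3, a transcription factor of the ATF/CREB family that many stresses induce, had the largest change of the list in each sex. On gel its level was 12.7, 10.1, 9.8 and 6.96 CPM in male replicates 1 to 4. Female gel held 11.3, 11.3, 10.4 and 7.10 CPM. On plastic it was 35.8, 25.8, 26.5 and 29.0 CPM in male and 23.6, 31.3, 35.7 and 19.1 CPM in female cells. Every plastic library lay above every gel library, and replicate 4 was the lowest on gel in both sexes. ATF3 rose 2.96-fold in male cells (log2 change 1.56, SE 0.22, adjusted p = 5.79e-05) and 2.74-fold in female cells (1.45, SE 0.21, adjusted p = 0.00012). Its gene lies on chromosome 9, 130772259 to 130829678 of Sscrofa11.1.

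**Figure D2:**
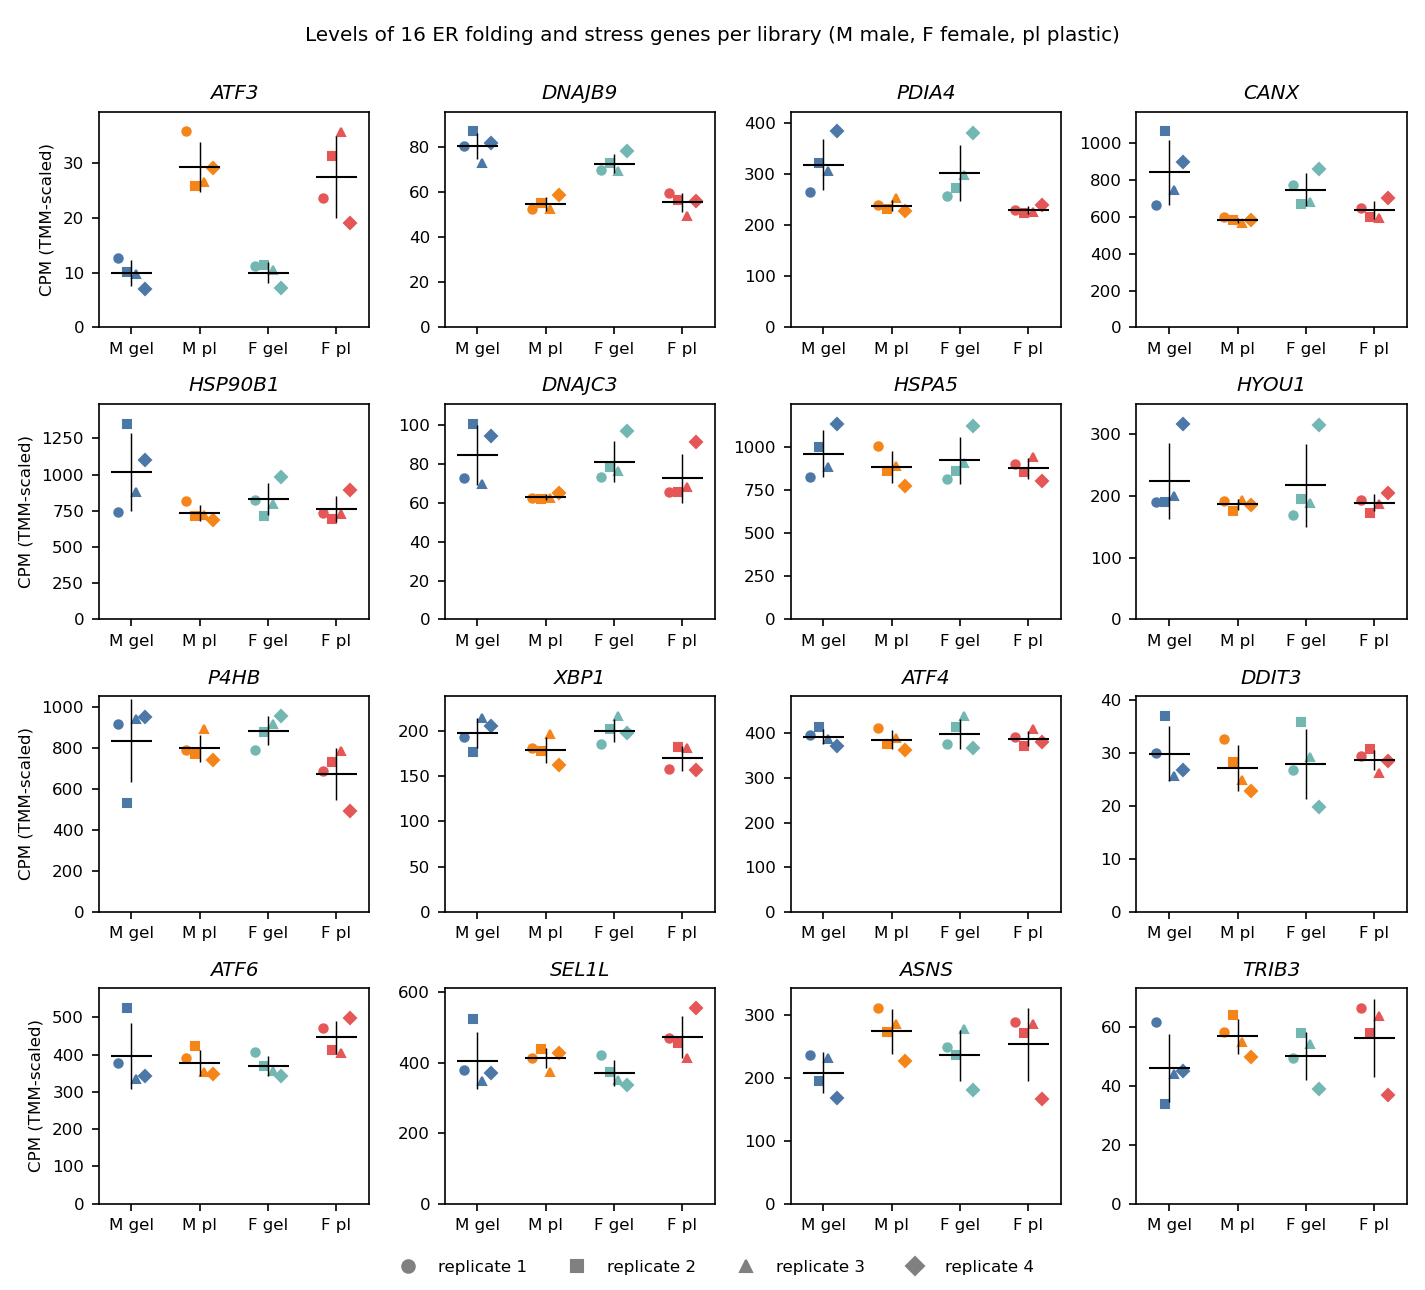
Level of 16 of the genes in each library (y axis, TMM-scaled CPM from 0), by group on the x axis; marker shapes give the replicate number, horizontal bars the group mean and vertical bars 1 SD (n = 4). ATF3 on plastic (19.1 to 35.8 CPM) lies above all gel libraries, DNAJB9 and PDIA4 lie lower on plastic within each sex, and HYOU1 is high in replicate 4 on gel.

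Among the 9 chaperone genes, 3 fell in male cells and 1 in female cells. DNAJB9 (ERdj4, an HSP40 co-chaperone and a classical target of spliced XBP1; chromosome 18, 36578928 to 36584211) had the lowest adjusted p of those that fell. Male gel held 80.4, 86.8, 72.9 and 81.5 CPM, and male plastic 52.4, 55.1, 52.4 and 58.8 CPM. In female cells the values were 69.6, 72.8, 69.4 and 78.2 CPM on gel and 59.6, 56.5, 49.5 and 56.1 CPM on plastic. No plastic library reached any gel library. DNAJB9 changed by -0.56 in male (SE 0.08, adjusted p = 0.000132) and by -0.39 in female cells (SE 0.08, adjusted p = 0.00274), that is -32.0% and -23.6%. In female cells it was no longer called when replicates male 4, female 1 and female 4 were left out on both surfaces (-0.41, adjusted p = 0.0538).

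HSP90B1 encodes GRP94, the HSP90 of the ER. Its male gel levels were 740, 1352, 880.1 and 1102 CPM, and its male plastic levels 816.8, 711.5, 720.1 and 686.5 CPM. Female gel held 823.3, 714.7, 797 and 980.8 CPM, and female plastic 732.5, 696.3, 725.1 and 892.7 CPM. The groups overlapped in each sex, and the value of 1352 belongs to male gel 2. HSP90B1 was called in male cells (-0.47, SE 0.16, adjusted p = 0.0346) but not in female cells (-0.12, 95% interval -0.45 to 0.21). Without male gel 2 the male change was -0.31 and no longer called (adjusted p = 0.119). Nor was it called when male gel 4 (adjusted p = 0.0769) or male plastic 2, 3 or 4 (0.0782, 0.0778 and 0.0859) was left out, or in a fit of the 8 male libraries alone (0.0845).

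DNAJC3 (p58IPK) is a co-chaperone of BiP. It stood at 73.0, 101, 69.8 and 94.4 CPM on male gel and at 62.6, 61.9, 62.5 and 65.1 CPM on male plastic, with no overlap. Female gel held 73.4, 78.4, 76.6 and 97.0 CPM and female plastic 65.6, 65.5, 68.5 and 91.6 CPM, so that female plastic 4 lay within the gel range. DNAJC3 changed by -0.42 in male cells (SE 0.14, adjusted p = 0.031) and was not called in female cells (-0.16, 95% interval -0.45 to 0.13). In male cells DNAJC3 was no longer called when male gel 2, male gel 4 or any 1 of the 4 male plastic libraries was left out, with an adjusted p of up to 0.0886.

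HSPA5 encodes BiP, the main HSP70 of the ER and the usual marker of the unfolded protein response. It was measured at 828.6, 997.4, 883 and 1136 CPM on male gel and 1007, 863.4, 889.3 and 776.4 CPM on male plastic. In female cells it stood at 811.8, 858.1, 907.3 and 1120 CPM on gel and 898.9, 856.7, 943.9 and 802.9 CPM on plastic. The surfaces overlapped in both sexes, and in each sex 2 of the 4 replicate numbers were lower on plastic and 2 higher. HSPA5 was not called, with a change of -0.12 in male (95% interval -0.38 to 0.14, adjusted p = 0.508) and -0.08 in female cells (-0.34 to 0.18, adjusted p = 0.689).

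The other chaperone genes were not called in either sex. They are HYOU1 (a large HSP70-like exchange factor of BiP), DNAJB11 (ERdj3), SDF2L1 (a partner of DNAJB11), MANF (a secreted ER stress protein) and CRELD2 (a disulfide isomerase-like stress protein). HYOU1 changed by -0.27 in male and -0.20 in female cells, DNAJB11 by -0.21 and -0.02, and MANF by 0.09 and 0.12. CRELD2 had 0.38 (95% interval -0.20 to 0.96) and 0.13 at means of 8.28 to 10.8 CPM. SDF2L1 had only 14 to 95 counts per library, and its male interval of -1.01 to 1.29 says little about its change.

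The lectin chaperone CANX (calnexin, a membrane protein that holds glycoproteins) fell in male cells, whereas its soluble relative CALR (calreticulin) was not called. CANX was at 664, 1064, 746 and 898.3 CPM on male gel and at 597.8, 581.3, 565.4 and 583.5 CPM on male plastic. Female gel held 773.9, 671.9, 679.1 and 862.5 CPM, and female plastic 648.2, 599.7, 595.9 and 704.7 CPM. Male surfaces did not overlap, while female plastic 4 lay above female gel 2 and 3. CANX changed by -0.53 in male (SE 0.13, adjusted p = 0.00569) and by -0.23 in female cells (95% interval -0.50 to 0.04, adjusted p = 0.215). CALR changed by -0.16 in male (95% interval -0.49 to 0.17) and by -0.07 in female cells (-0.40 to 0.26).

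Of the 5 genes of disulfide formation, PDIA4 (ERp72, a disulfide isomerase; chromosome 9, 109260850 to 109280256) fell in both sexes. Male gel held 264.8, 322, 305.9 and 384.4 CPM, and male plastic 240.6, 232.1, 252.9 and 228.5 CPM. Female gel held 257.4, 273.4, 298.1 and 382.2 CPM, and female plastic 229.6, 224, 225.4 and 240.6 CPM. Plastic lay below gel without overlap in each sex, and replicate 4 was the highest gel library in both. PDIA4 changed by -0.42 in male (SE 0.12, adjusted p = 0.0185) and by -0.40 in female cells (SE 0.12, adjusted p = 0.0258), or -25.3% and -24.1%. Leaving out male gel 4 gave -0.32 (adjusted p = 0.0646) and male plastic 4 -0.40 (0.0507), neither called. In female cells, leaving out female gel 4 gave -0.27 (adjusted p = 0.0998), and leaving out female plastic 1, 2 or 3 gave an adjusted p of 0.0561, 0.0614 and 0.0585.

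The other isomerases and the oxidase ERO1B, which passes oxidizing power to them, were not called. P4HB (protein disulfide isomerase, also a subunit of collagen prolyl 4-hydroxylase) was at 790.4 to 957.9 CPM on female gel and 491.5 to 784.9 CPM on female plastic, with no overlap. Its change of -0.40 had an interval of -0.75 to -0.04 and an adjusted p of 0.103. Without male gel 2, a library of neither female group that enters the shared estimate of the spread, the same change of -0.40 was called (adjusted p = 0.0208). In male cells P4HB changed by -0.07 (95% interval -0.42 to 0.29), and male gel 2 was at 532.9 CPM beside 915.9 to 950.6 CPM in the other male gel libraries. PDIA3 (ERp57, the partner of the lectin chaperones) changed by -0.23 and -0.04, PDIA6 (ERp5) by -0.07 and -0.08, and ERO1B by -0.26 and -0.49 at means of 4.90 to 6.99 CPM.

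The collagen-folding genes were not called in either sex. SERPINH1 (HSP47, the collagen-specific chaperone) was at 689.7 to 904.1 CPM on gel and 738.6 to 880.1 CPM on plastic over both sexes. Its change was 0.00 in male (95% interval -0.20 to 0.20) and -0.14 in female cells (-0.34 to 0.06). FKBP10 (FKBP65, a prolyl isomerase for collagen) changed by 0.00 in male (-0.28 to 0.28) and by -0.19 in female cells (-0.47 to 0.08). Among the collagens in the same libraries, COL3A1 rose in male (0.48, adjusted p = 0.0189) and female cells (0.54, adjusted p = 0.0103). COL1A1 rose in male cells (0.45, adjusted p = 0.0482) and was not called in female cells (0.37, adjusted p = 0.113). COL1A2 was not called in male (0.23, adjusted p = 0.0777) or female cells (0.16, adjusted p = 0.223). The difference between the collagens and their chaperones was not tested.

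Of the 4 genes for the degradation of misfolded proteins, HERPUD1, an ER membrane protein of the degradation complex that ER stress induces, was the 1 called. It was at 126.3, 115.9, 106.5 and 128.9 CPM on male gel and 108.7, 96.02, 100.5 and 101.6 CPM on male plastic, with overlap. Female gel held 132.7, 122.8, 122.7 and 117 CPM, and female plastic 115.6, 103.8, 106.1 and 104.4 CPM, without overlap. HERPUD1 changed by -0.23 in male (SE 0.08, adjusted p = 0.0457) and by -0.20 in female cells (SE 0.08, adjusted p = 0.0801), and was lower on plastic in 4 of 4 replicate numbers of each sex. So were CANX, PDIA4, DNAJB9 and DNAJC3, which makes 5 of the 34 genes, beside 13.3% of all tested genes. The male call of HERPUD1 was lost in 11 of 16 fits that left out 1 library, with an adjusted p of up to 0.127. It was also lost with RLE size factors (0.0588), with no filter on low counts (0.107) and in a fit of the 8 male libraries alone (0.132).

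SEL1L and SYVN1 form the ubiquitin ligase complex of this pathway, and EDEM1 hands it misfolded glycoproteins. SEL1L was at 336 to 421.6 CPM on female gel and 412.7 to 555.2 CPM on female plastic. It was higher on plastic in 4 of 4 female replicate numbers, with a change of 0.35 (SE 0.13, adjusted p = 0.0574). The share of all tested genes with that pattern in female cells was not counted. With the replicate number as a block SEL1L was called in female cells (0.35, adjusted p = 0.0363), as it was by DESeq2 (0.38, adjusted p = 0.0261). Leaving out male gel 2 (0.0123), female gel 1 (0.0412) or female plastic 3 (0.0441) also brought it to a call. In male cells it changed by 0.03. SYVN1 changed by 0.30 and -0.02 and EDEM1 by -0.12 and -0.19 in male and female cells, with no call.

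None of the 5 sensor and transcription factor genes was called in either sex. By the same fits, 0 of the 5 in male and 2 in female cells had an unadjusted p under 0.05. Of all 14530 tested genes, 5442 in male and 5163 in female cells did. DESeq2 and limma-voom also called 0 of these 5 genes. Scaled to total counts instead of TMM, XBP1, ATF4, ERN1 and EIF2AK3 were called lower in both sexes, on a scale where the median of all tested genes was -0.28. Their changes on that scale were -0.38, -0.27, -0.49 and -0.51 in male cells and -0.49, -0.28, -0.57 and -0.48 in female cells, with adjusted p from 0.000597 to 0.0146. ATF4 was the most even: 395.4, 413.4, 388.2 and 372.8 CPM on male gel, 412.5, 376.1, 390.6 and 362.9 CPM on male plastic, 375.8, 413.4, 439.9 and 367.2 CPM on female gel, and 391.3, 371, 410 and 380.7 CPM on female plastic. The 4 groups overlapped throughout. Its 95% intervals were -0.20 to 0.14 in male and -0.21 to 0.13 in female cells.

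XBP1, the factor that IRE1 activates by splicing, was at 193.7, 176.9, 215.1 and 205.7 CPM on male gel and 181.2, 178.2, 197.3 and 162.3 CPM on male plastic. Female gel held 185.4, 202.1, 217.4 and 198.3 CPM and female plastic 158.2, 182.6, 181.5 and 157.5 CPM. Only the female surfaces did not overlap. XBP1 changed by -0.14 in male (adjusted p = 0.285) and by -0.24 in female cells (95% interval -0.43 to -0.05, adjusted p = 0.0674). Without male gel 2 the female change of -0.24 was called (adjusted p = 0.0345).

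ERN1 (IRE1) was at 40.1, 39.6, 47.1 and 51.9 CPM on male gel, and at 35.1, 38.5, 41.1 and 36.3 CPM on male plastic. In female cells it was at 41.4, 48.4, 38.5 and 44.6 CPM on gel and at 31.9, 39.3, 38.9 and 28.4 CPM on plastic. The surfaces overlapped in each sex. The change was -0.24 in male (95% interval -0.50 to 0.01) and -0.32 in female cells (-0.58 to -0.06, adjusted p = 0.0687). Without male gel 2 or female plastic 2 the female change was called, at an adjusted p of 0.0467 at the lowest.

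EIF2AK3 (PERK) was at 87.3, 90.4, 78.5 and 117 CPM on male gel and 76.3, 69.9, 79.8 and 84.5 CPM on male plastic. Female gel held 99.0, 86.3, 81.7 and 115.6 CPM and female plastic 82.1, 76.5, 75.1 and 91.3 CPM. Replicate 4 was the highest library of both gel groups, and the surfaces overlapped. Its changes of -0.26 (95% interval -0.54 to 0.01) and -0.24 (-0.51 to 0.04) were not called.

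ATF6 was at 378.5, 525.7, 335.7 and 341.8 CPM on male gel and 389.7, 422.5, 353.8 and 347.7 CPM on male plastic. Female gel held 406, 368.9, 355 and 343.8 CPM and female plastic 470.4, 413.6, 403.5 and 497.1 CPM. Male gel 2 was the highest of all 16 libraries, and the female surfaces overlapped by 1 gel library. ATF6 changed by -0.06 in male (-0.34 to 0.21) and by 0.28 in female cells (0.00 to 0.55, adjusted p = 0.142). Without male gel 2 the female change was called (adjusted p = 0.0321).

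DDIT3, TRIB3 and CHAC1, which act below ATF4, were not called in either sex. DDIT3 (CHOP, a factor linked to cell death under ER stress) was at 30.1, 37.1, 25.8 and 26.8 CPM on male gel and 32.8, 28.3, 24.9 and 22.9 CPM on male plastic. Female gel held 26.7, 36.0, 29.3 and 19.9 CPM and female plastic 29.4, 30.8, 26.2 and 28.6 CPM. All groups overlapped, and DDIT3 changed by -0.14 in male (95% interval -0.48 to 0.21, adjusted p = 0.585) and 0.04 in female cells (-0.31 to 0.38, adjusted p = 0.895). TRIB3 (a pseudokinase that restrains ATF4) had 0.30 and 0.17, and CHAC1 (an enzyme that degrades glutathione) 0.20 and 0.00, with no call. Male gel 2 was the lowest male gel library for both, at 33.8 CPM for TRIB3 and 28.7 CPM for CHAC1, beside 43.9 to 61.6 and 57.7 to 66.5 CPM.

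The amino acid genes are ASNS (asparagine synthetase) and PHGDH and PSAT1, which make serine. ASNS was at 168.5 to 236.9 CPM on male gel and 226.6 to 311.9 CPM on male plastic, higher on plastic in 4 of 4 male replicate numbers. The share of all tested genes with that pattern in male cells was not counted. The male change of ASNS was 0.40 (95% interval 0.03 to 0.77, adjusted p = 0.104). With the replicate number as a block, ASNS was called higher in male cells (0.40, adjusted p = 0.00411), as it was without female plastic 4 (0.0436). In female cells it was at 181.2 to 278.1 CPM on gel and 167.4 to 288.8 CPM on plastic, with a change of 0.10. PHGDH changed by 0.33 and -0.02 and PSAT1 by 0.02 and 0.03, with no call. PHGDH was at 45.1 CPM in male gel 2, beside 82.1 to 96.8 CPM in the other male gel libraries.

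The size of these falls depended on the scale. TMM factors were 1.048 to 1.124 on gel and 0.896 to 0.984 on plastic, without overlap. As a share of all counts, the 34 genes took 1.05% to 1.25% on gel and 0.855% to 0.928% on plastic. Scaled to total counts, 14 of the 34 genes fell and 1 rose in male cells, and 15 fell and 1 rose in female cells. On that scale 33.1% of all tested genes fell in male and 29.8% in female cells, and the median of all tested genes was -0.28 in each sex. The median of the 34 genes moved with it, to -0.34 in male and -0.32 in female cells. HSPA5 was among the genes added in male cells on that scale (-0.36, adjusted p = 0.0309) but not in female cells, and CANX, DNAJC3 and HERPUD1 were among those added in female cells. Every gene called under TMM was called in the same direction on both scales. The labels name no extraction or sequencing batch.

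The study also compared the sexes. No gene of the 34 differed between female and male cells on either surface. The count was 0 on gel, where 0.103% of all tested genes were called, and 0 on plastic, where 0.124% were. On each surface 0 of the 34 genes reached an unadjusted p under 0.05. Over all 14530 tested genes, 560 did on gel and 284 on plastic. DESeq2 and limma-voom also called 0 of the 34 genes. Female minus male changes lay between -0.30 (HSP90B1) and 0.34 (PHGDH) on gel and between -0.32 (SDF2L1) and 0.24 (ATF6) on plastic. Both extremes on gel involve genes for which male gel 2 lay farthest from its group. On gel the sexes overlapped for every 1 of the 34 genes, where 2.03% of all tested genes did not overlap. DNAJC3 was the 1 gene without overlap between the sexes on plastic (female 65.5 to 91.6, male 61.9 to 65.1 CPM), where 2.85% of all tested genes did not overlap.

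The difference between the sexes' surface changes was tested directly. It was called for 0 of the 34 genes, and for 0% of all tested genes, with 0 of the 34 and 633 of the 14530 at an unadjusted p under 0.05. DESeq2 and limma-voom also called 0 of the 34. HSP90B1 and CANX, called in male cells only, had differences of 0.35 (SE 0.22, adjusted p = 0.767) and 0.31 (SE 0.18, adjusted p = 0.767). For DNAJC3 the difference was 0.26 (SE 0.19) and for HERPUD1 0.03 (SE 0.11). P4HB had -0.33 (SE 0.24), ATF6 0.34 (SE 0.19) and SEL1L 0.32 (SE 0.18). None of these shows that a surface change differed between the sexes.

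Within groups, the levels were also read by library. Replicate 4 was the highest gel library of both sexes for 13 of the 34 genes: HSPA5, CALR, PDIA4, PDIA6, P4HB, DNAJB11, HYOU1, SDF2L1, MANF, CRELD2, SYVN1, EDEM1 and EIF2AK3. Over all tested genes the same held for 13.5%. HYOU1 was at 317.4 and 315.4 CPM in male gel 4 and female gel 4, beside 168.6 to 199.4 CPM in the other 6 gel libraries. EDEM1 was at 335.9 and 324.3 CPM there, beside 215.4 to 266.4 CPM, and MANF at 64.6 and 65.4 CPM, beside 33.8 to 51.9 CPM. On plastic, HYOU1 in replicate 4 was 184.8 and 205 CPM, and the other plastic libraries held 171.7 to 193.1 CPM.

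ATF4, ATF3, ASNS and PSAT1 were lowest in replicate 4 of both gel groups, 4 of 34 genes beside 13.6% of all tested genes. This share lay slightly below that of all tested genes. ASNS was at 168.5 and 181.2 CPM there, beside 194.8 to 278.1 CPM, and PSAT1 at 436.2 and 437.2 CPM, beside 548.5 to 631.2 CPM. A number does not mark 1 animal across the sexes, so these are separate biological replicates. The endothelial markers were also highest in these libraries of the gel groups, at 272.9 and 286.6 CPM summed, beside 155.6 to 249 CPM in the other gel libraries. CDH5 (VE-cadherin) was at 44.8 and 47.1 CPM, beside 4.97 to 20.3 CPM. The endothelial list did not move together. VWF was lowest there, at 0.135 and 0.217 CPM, beside 0.565 to 4.17 CPM. ERG was at 107.9 and 113.2 CPM, within the 92.8 to 140.4 CPM of the other gel libraries. The smooth muscle and pericyte markers summed to 2898 and 2675 CPM there, beside 2874 to 6352 CPM. The part of either marker list in these values was not tested.

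**Figure D3:**
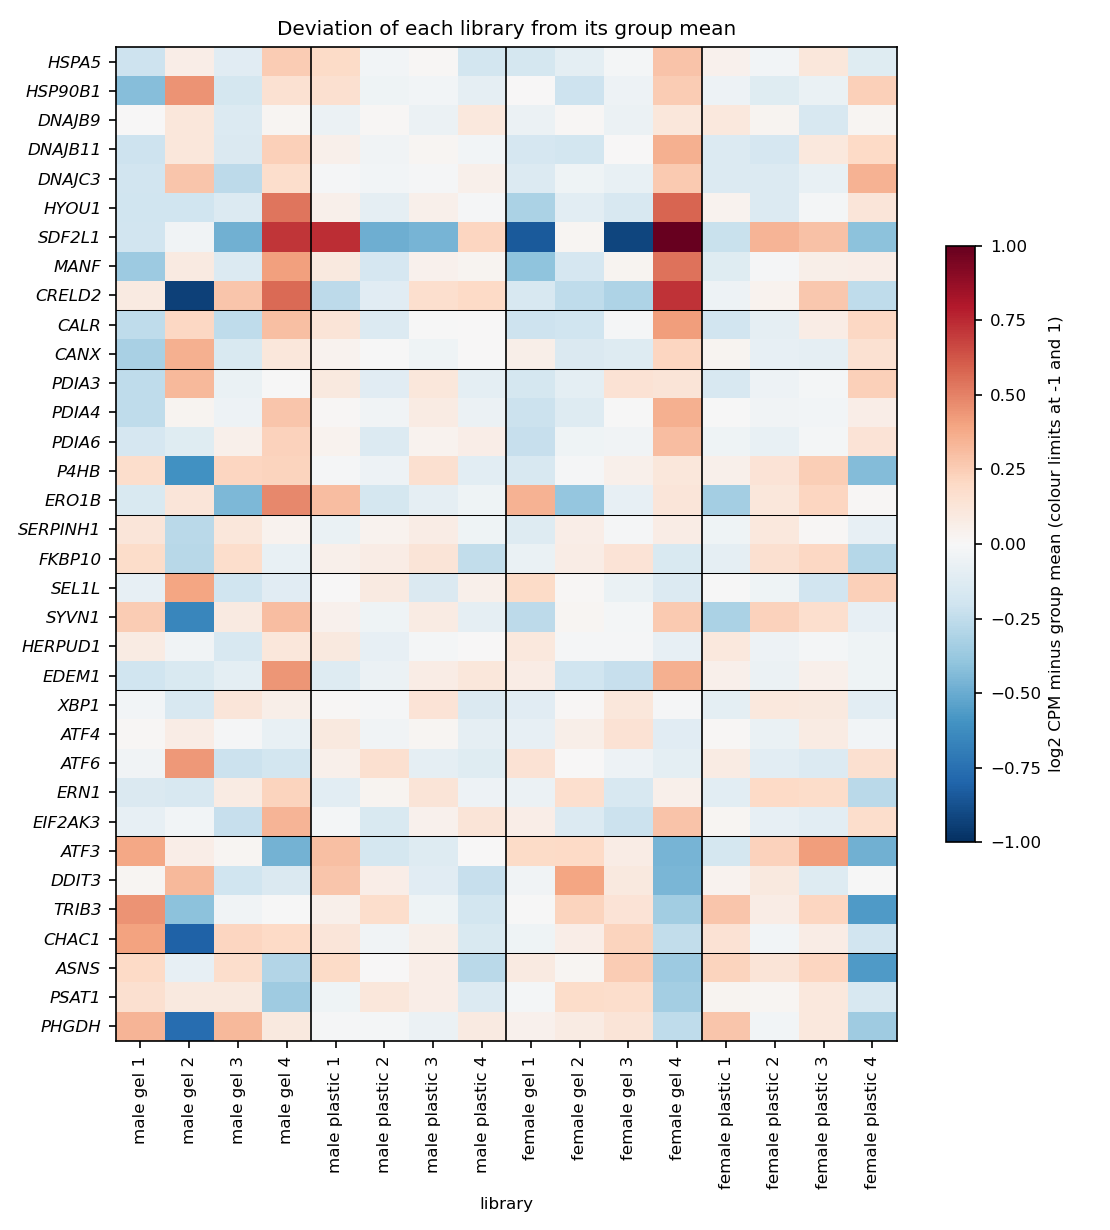
Deviation of each library (x axis) from its group mean in log2 CPM for the 34 genes (y axis, ordered by role), with colours limited to -1 and 1. Replicate 4 on gel is high for chaperone genes such as HYOU1 in both sexes and low for ASNS and PSAT1, and male gel 2 is low for P4HB, CHAC1 and PHGDH.

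Male gel 2 and female plastic 4, the libraries that stood apart over all genes, were also read together. HSP90B1, CANX, PDIA3, DNAJC3, SEL1L and ATF6 were the highest of their groups in both, 6 of 34 genes beside 20.6% of all tested genes. P4HB, SERPINH1, FKBP10, CRELD2, XBP1, ERN1, TRIB3, CHAC1 and PHGDH were the lowest in both, 9 of 34 genes beside 22.1%. The first share lay below and the second above that of all tested genes, and both lay near it. P4HB was at 532.9 and 491.5 CPM in these libraries, the lowest of all 16, and ATF6 at 525.7 and 497.1 CPM, the highest of all 16. Without both libraries, 5 genes fell and 1 rose in male cells, with HSP90B1 no longer called, beside 14% of all tested genes down and 14.6% up. In female cells 3 fell and 2 rose, beside 14.5% down and 14.8% up, with P4HB (-0.27, adjusted p = 0.031) and SEL1L (0.27, adjusted p = 0.034) added.

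Other genes of the same pathways were read from lists that hold none of the 34. Their counts stand beside 12.9% of all tested genes up and 12.9% down in male cells, 12.7% up and 11.3% down in female cells, and medians of -0.03 and -0.04. Of 27 tested ER chaperones and oxidoreductases, 1 rose and 8 fell in male cells, and 1 rose and 3 fell in female cells, with a median change of -0.27 and -0.10. The male share that fell lay above that of all tested genes, and the other 3 shares lay below it. UGGT2, a glycoprotein folding sensor, rose by 0.51 and 0.55 in male and female cells. PPIB (cyclophilin B, a prolyl isomerase that acts on collagen) changed by -0.38 (adjusted p = 0.00674) and -0.47 (adjusted p = 0.00157), from 211.3 to 161.9 and from 207 to 149.3 CPM. PRDX4, an ER peroxiredoxin, fell in male (-0.40, adjusted p = 0.0189) and female cells (-0.65, adjusted p = 0.000716). SEC63, a translocon co-chaperone, changed by -0.75 in male (adjusted p = 0.0056) and by -0.25 in female cells (adjusted p = 0.345).

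Genes of ER entry and glycosylation had 1 of 31 up and 8 down in male cells and 2 up and 7 down in female cells, with medians of -0.20 and -0.19. The share that fell lay above that of all tested genes in both sexes, and the share that rose lay below it. The oxidoreductase subunits of the oligosaccharyltransferase, TUSC3 and MAGT1, fell in both sexes. TUSC3 changed by -0.70 and -0.94 and MAGT1 by -0.96 and -0.58. SEC11A, a catalytic subunit of signal peptidase, changed by -0.56 and -0.51. STT3B, the catalytic subunit with which TUSC3 or MAGT1 works, rose in female cells (0.50, adjusted p = 0.0249) and had 0.17 in male cells (adjusted p = 0.436).

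Of 24 other genes of ER-associated degradation, 3 rose and 3 fell in male cells, and 4 rose and 0 fell in female cells. UBE2J1, an ER ubiquitin-conjugating enzyme, rose by 0.55 and 0.48, and NGLY1, which strips glycans from retrotranslocated proteins, by 0.60 and 0.87. SVIP, a small inhibitor of this pathway, rose by 0.96 and 1.42 from means of 2.32 and 2.73 CPM. FAF2 (-0.30), UBXN4 (-0.44) and OS9 (-0.34) fell in male cells and were not called in female cells. The list had medians of -0.01 and -0.11. The list of other stress sensing and control genes had 3 of 27 up and 4 down in male and 4 up and 7 down in female cells. Its medians were -0.09 and -0.20. The share that fell lay above that of all tested genes in both sexes. The share that rose lay below it in male and above it in female cells. EIF2AK2 (-0.956), NFE2L2 (-0.531) and NCK1 (-0.595) were among those that fell in male cells. TRAF2 (-1.14) and CAMKK2 (-0.61) were among those that fell in female cells. CREB3L2, an ER-bound factor of the ATF6 type that promotes secretory capacity, rose by 0.65 and 0.63. MBTPS1, the protease that cuts ATF6, changed by -0.26 (adjusted p = 0.0301) and -0.36 (adjusted p = 0.00522).

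Other ATF4 targets and amino acid transporters moved both ways, with 4 of 32 up and 6 down in male and 4 up and 4 down in female cells. VLDLR, a lipoprotein receptor, rose by 1.36 and 1.27, and PPP1R15A (GADD34, which reverses PERK signalling) by 0.36 and 0.33. DDIT4, an inhibitor of mTOR, changed by -1.44 and -1.47, from 196.2 to 72.5 CPM in male and from 210.1 to 75.7 CPM in female cells. CBS, of cysteine synthesis, changed by -0.67 and -0.81. The heat shock genes of the cytosol and mitochondria had 7 of 24 up and 4 down in male and 7 up and 2 down in female cells, with medians of 0.11 and 0.24. The share that rose lay above that of all tested genes in both sexes, and the share that fell lay above it in male and below it in female cells. CRYAB (alpha-B crystallin) rose by 1.94 and 1.70, from 69.9 to 267.6 CPM in male and from 83.7 to 271.2 CPM in female cells. HSP90AB1, a cytosolic HSP90, changed by -0.60 and -0.45, and HSPE1 (mitochondrial HSP10) by -0.39 and -0.42. The difference between these lists and the 34 genes was not tested.

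**Figure D4:**
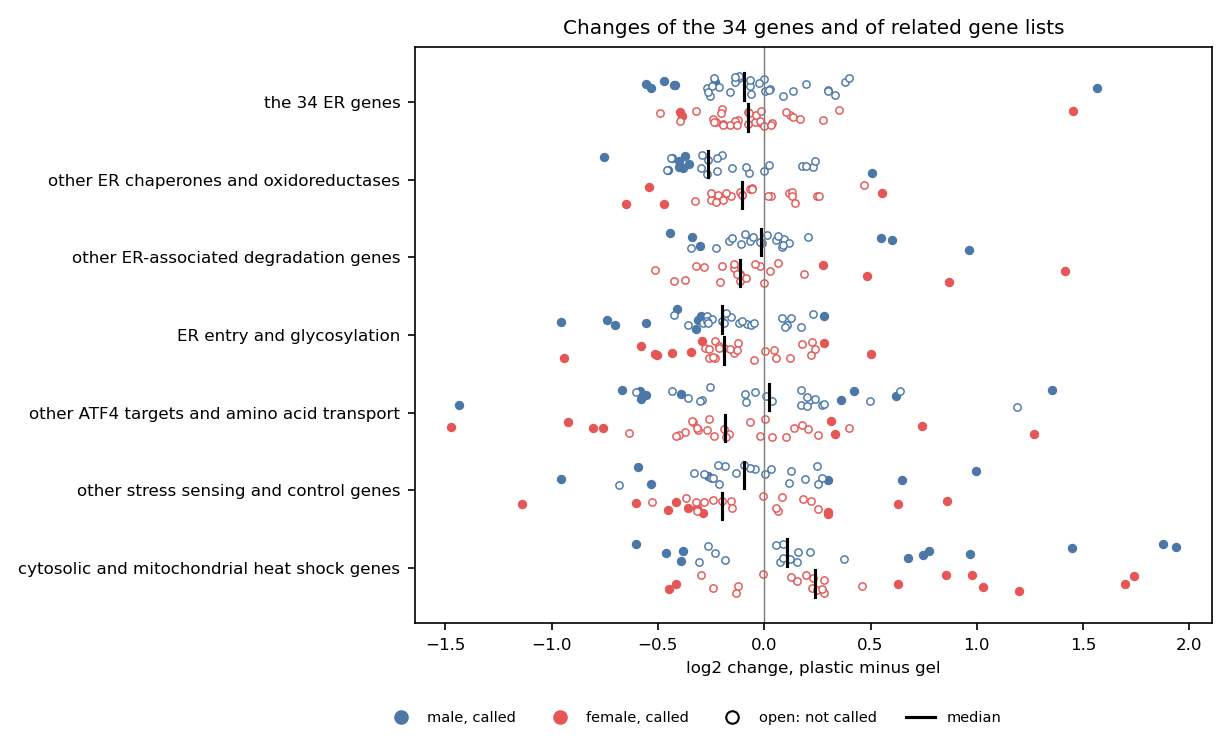
Log2 change from gel to plastic (x axis) of each tested gene of the 34 ER genes and of 6 related lists (y axis), male in blue and female in red, filled where called and with black bars at the medians. The 34 ER genes cluster near 0 apart from ATF3, while the heat shock list has medians of 0.11 and 0.24 and reaches CRYAB at 1.94.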

How the data were processed

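The authors deposited a single table of unnormalized read counts with genes in rows and the 16 libraries in columns. Per the submitters' processing notes, FastQC 0.11.5, Trimmomatic 0.36, HISAT2 2.1.0, SAMtools 1.3.1 and featureCounts were used with the build Sscrofa11.1. The strand setting is not given in the sources used here, so reads of overlapping antisense genes cannot be told apart. How reads that match several genes were counted is not given either. Entries numbered in place of a name (24 of 29576, 0.169% of counts) were dropped. RefSeq, the source of coordinates, held a symbol for each of the remaining 29552.

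Genes were tested with edgeR 4.0.16 (R 4.3.3), by its quasi-likelihood F test after filterByExpr and TMM, in a model with a mean for each of the 4 groups (12 residual degrees of freedom) and with Benjamini-Hochberg adjustment over 14530 genes. Intervals are 95% intervals of the fit. Biological variation between libraries of a group, as a coefficient, had a median of 0.182. The alternatives comprised DESeq2 1.42.0, limma-voom (limma 3.58.1), RLE size factors, other filters, fewer libraries, the replicate block and, added after the data were seen, total-count scaling. Figures used matplotlib 3.10.9.

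Members and lists were chosen with earlier results of these data known. Values in every library are given for members called at 5 CPM or more and for HSPA5, XBP1, ATF4, DDIT3, ATF6, ERN1 and EIF2AK3. Related lists name part of up to 3 called genes per direction, sex and list, picked after their values were seen. COL1A1, COL1A2, COL3A1, ACTA2, CDH5, VWF and ERG come from the marker lists. Aminoacyl-tRNA synthetases were not analysed here. Levels of different genes were not compared, as counts were not divided by length.

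Libraries of the same sex and number deviated together from their group means (correlation 0.13 to 0.49 over genes in 8 pairs, each above that with any other number). The series' design text counts 4 male and 4 female replicates for 16 samples, so the numbers are read as pairs. The main fit did not use this pairing, and only the fits with a replicate block did. Whether same-numbered libraries came from 1 animal is not stated. Within each group no library was a copy of another, with a chi-square per degree of freedom of 10.1 to 83.8 over 24 pairs. Pairs across groups were not compared in this way.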

Additional observations from a re-analysis of the deposited data

Results flagged for a closer look

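In groups of 4 libraries, a value was singled out where its gap to the nearest other library took a larger part of the group's range than Dixon's 95% critical value for 4 samples allows. Of 136 groups (34 genes in 4 groups), 9 held such a value, and chance alone gives about 1 in 20. Male gel 4 was high for HYOU1 (317.4 CPM, others 190.5 to 199.4) and EDEM1 (335.9 CPM, others 215.4 to 230.6) and low for PSAT1 (436.2 CPM, others 595.7 to 621.1). Female gel 4 was high for CRELD2 (15.1 CPM, others 7.34 to 8.15). Male gel 2 was low for P4HB (532.9 CPM, others 915.9 to 950.6) and high for SEL1L (524.5 CPM, others 348 to 377.6). Female plastic 4 was high for DNAJC3 (91.6 CPM, others 65.5 to 68.5) and low for ASNS (167.4 CPM, others 271 to 288.8). Male plastic 2 was low for PDIA6 (161.2 CPM, others 181.5 to 185.3).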

How the results depend on the processing

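Over 68 changes (34 genes in 2 sexes), 1692 of 1768 values under the alternatives kept their side of the threshold, 39 lost a call, 37 gained one, and 0 called values turned sign. A change of sign between values that were not called was not counted. In male cells the count of genes called lower was 6 and fell to 2 without replicates male 4, female 1 and female 4 on both surfaces, and rose to 14 with total-count scaling. It ran from 2 to 6 when 1 library was left out. The male count called higher was 1 and became 2 without those replicates and with the replicate block (ASNS, 0.40, adjusted p = 0.00411), and ran from 1 to 2 with 1 library left out. Over all tested genes, the share called higher in male cells was 12.9% in the main fit and 11.7% without those replicates. With 1 library left out that share ran from 10.3% to 13.3%. In female cells the count called lower was 2 and became 0 without those replicates, 3 without male gel 2 and female plastic 4, and 15 with total-count scaling, and ran from 1 to 5 with 1 library left out (5 without male gel 2). Over all tested genes, the share called lower in female cells moved the same way, from 11.3% to 5.32% without those replicates, 14.5% without both libraries, 29.8% with total-count scaling and 15% without male gel 2. In male cells it moved from 12.9% to 9.74% without those replicates and to 33.1% with total-count scaling. With 1 library left out, the share called lower ran from 9.13% to 13.6% in male and from 8.89% to 15% in female cells. The female count called higher was 1 and became 2 with RLE size factors, DESeq2, the replicate block, and without male gel 2 and female plastic 4, through SEL1L each time. It ran from 1 to 3 with 1 library left out (3 without male gel 2). Over all tested genes, the share called higher in female cells was 12.7% in the main fit. With 1 library left out that share ran from 10% to 15.3%, highest without male gel 2. Leaving out replicates male 4, female 1 and female 4 leaves 3 male and 2 female libraries per surface. PDIA4 then had -0.29 in male (0.0606) and -0.33 in female cells (0.101). The replicate block changed no call other than ASNS in male and SEL1L in female cells. Over all tested genes the block called 15.5% higher and 14.2% lower in male cells, and 14.5% and 13.1% in female cells. For the comparisons of the sexes and for the difference of the surface changes, all alternatives gave 0 calls among the 34 genes. The comparisons of the sexes included a random replicate block in limma-voom. The difference of the surface changes included the replicate block of the main method instead. SDF2L1, with at most 95 counts per library, is limited by depth.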
